A study of Mus musculus with 60 samples.

Results

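Oxidative phosphorylation is the set of reactions by which mitochondria turn the energy of food into ATP. Complexes I and II take electrons from NADH and succinate, complex III passes them to the small carrier cytochrome c, and complex IV hands them to oxygen. Complexes I, III and IV pump protons while they do so, and the ATP synthase makes ATP as the protons flow back. Most subunits are encoded in the nucleus, and a few are encoded in mitochondrial DNA. In adipose tissue the chain burns fatty acids, in brown fat it runs partly uncoupled to make heat, and skeletal muscle is richer in it than white fat.

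The genes described here are the nuclear subunits of these complexes, chosen by symbol: names that start with Nduf, Uqcr, Atp5, Cox4, Cox5, Cox6, Cox7 or Cox8, the 4 Sdh genes, Cyc1 and Cycs, without the tissue isoforms Cox6a2, Cox7a1 and Cox8b. The rule found 79 genes among 15964 genes that had a probe set with a single symbol. They comprise 32 genes of complex I, 7 complex I assembly factors (Ndufaf genes, which help to build the complex and are not subunits), 4 of complex II, 8 of complex III, cytochrome c, 13 of complex IV and 14 of the ATP synthase. The mitochondrially encoded subunits had 0 named probe sets and are not analysed here.

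RNA came from the mammary glands of ovariectomized mice, in which the ovarian source of estrogen and progesterone is gone. Every animal had an injection into the abdominal cavity on each of 4 days. The 4 V animals were given the vehicle, 100 µl of sesame oil. The 4 E animals were given 17-beta-estrogen at 2 µg, and the 4 P animals progesterone at 1 mg. The 5 E+P animals had both. A further group, E+P CFP, consisted of fat pads with no epithelium from 3 animals that had also received both hormones; it was included to set the stroma apart from the whole gland. Whether these 3 are distinct from the E+P gland animals is not given in the labels; they were taken as distinct because the 5 group sizes then sum to the stated 20. Lymph nodes had been taken out of the glands. The labels give no strain or age, and the description field of the V samples names progesterone where their titles and treatment protocol give sesame oil; the titles were followed. RNA of all 20 animals was hybridised to Affymetrix arrays of 3 types (A, B and C), and the number of arrays limits the precision of every value. Replicates are called biologic replicates in the labels.

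Of the 79 genes, 70 were bright enough to be tested (29 of complex I, 5 assembly factors, 4 of complex II, 8 of complex III, cytochrome c, 11 of complex IV and 12 of the ATP synthase), 63 of them on type A. The other 9 (Ndufa12, Ndufc2, Ndufs4, Ndufaf2, Ndufaf5, Cox5a, Cox8a, Atp5g2 and Atp5j2) were represented by a dim probe set; for Cox8a it was at the floor in all 20 animals. A gene is represented by 1 probe set, so its value is that of the probe set: no gene's level is set against another's. For 14 of the 70 genes, among them Atp5e, Atp5md, Cox6a1, Ndufa3, Ndufa5 and Sdhb, the probe set carries a suffix by which the manufacturer marks probes that may also bind related transcripts or that were chosen under relaxed rules, and pseudogenes of such subunits are common. These genes are uncertain in that respect.

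The promoters of 6 members, one from each complex plus cytochrome c, were picked because each holds a match to the NRF1 or the ETS motif; most members with a promoter in the reference hold neither. They are RefSeq sequences of build GRCm38.p6, from 250 bases before to 50 bases after the first listed start of the gene, read 5' to 3' on the strand of the gene. Capitals mark matches to the NRF1 motif GCGCATGC, the ETS motif CCGGAAG or the YY1 motif AAGATGGC on either strand; a match on the opposite strand reads as its reverse complement, and in Cox6a1 matches to the NRF1 motif on both strands overlap. NRF1 and the ETS factor GABP are known as activators of respiratory chain genes.

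Promoters of Ndufs3 (complex I), Sdhb (complex II), Uqcr11 (complex III), Cycs (cytochrome c), Cox6a1 (complex IV) and Atp5md (ATP synthase), picked with the matches known among the members called in the comparison of gland and fat pad:
Ndufs3, chr2:90904672-90904971, minus strand: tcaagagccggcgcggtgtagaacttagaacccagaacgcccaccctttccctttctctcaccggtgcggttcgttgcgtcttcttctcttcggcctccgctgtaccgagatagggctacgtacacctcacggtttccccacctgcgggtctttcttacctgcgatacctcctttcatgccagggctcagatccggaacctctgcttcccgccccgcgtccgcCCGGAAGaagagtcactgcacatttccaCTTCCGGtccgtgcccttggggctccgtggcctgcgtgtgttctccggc
Sdhb, chr4:140961021-140961320, plus strand: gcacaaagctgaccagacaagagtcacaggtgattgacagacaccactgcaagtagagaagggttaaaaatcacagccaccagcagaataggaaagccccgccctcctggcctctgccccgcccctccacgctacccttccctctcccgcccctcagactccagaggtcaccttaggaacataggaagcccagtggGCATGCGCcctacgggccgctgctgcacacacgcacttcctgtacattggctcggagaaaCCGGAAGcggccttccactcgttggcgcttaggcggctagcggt
Uqcr11, chr10:80406772-80407071, minus strand: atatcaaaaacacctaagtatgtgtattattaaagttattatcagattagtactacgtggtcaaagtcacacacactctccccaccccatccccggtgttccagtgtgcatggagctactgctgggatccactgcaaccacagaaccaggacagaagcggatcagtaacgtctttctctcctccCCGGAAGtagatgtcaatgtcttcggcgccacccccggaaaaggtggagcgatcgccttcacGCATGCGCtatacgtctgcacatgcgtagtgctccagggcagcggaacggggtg
Cycs, chr6:50566520-50566819, minus strand: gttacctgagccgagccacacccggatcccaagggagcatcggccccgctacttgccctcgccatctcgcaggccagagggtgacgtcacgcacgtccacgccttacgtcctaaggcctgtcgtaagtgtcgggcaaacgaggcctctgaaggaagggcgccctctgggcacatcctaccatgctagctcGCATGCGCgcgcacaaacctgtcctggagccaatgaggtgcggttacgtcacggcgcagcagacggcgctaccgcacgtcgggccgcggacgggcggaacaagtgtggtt
Cox6a1, chr5:115348909-115349208, minus strand: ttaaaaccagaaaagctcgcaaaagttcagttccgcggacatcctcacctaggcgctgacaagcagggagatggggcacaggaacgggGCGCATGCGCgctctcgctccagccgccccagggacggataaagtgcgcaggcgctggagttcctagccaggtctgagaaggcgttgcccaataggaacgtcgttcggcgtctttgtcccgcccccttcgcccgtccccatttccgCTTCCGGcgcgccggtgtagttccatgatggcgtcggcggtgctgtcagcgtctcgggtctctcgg
Atp5md, chr19:47090598-47090897, minus strand: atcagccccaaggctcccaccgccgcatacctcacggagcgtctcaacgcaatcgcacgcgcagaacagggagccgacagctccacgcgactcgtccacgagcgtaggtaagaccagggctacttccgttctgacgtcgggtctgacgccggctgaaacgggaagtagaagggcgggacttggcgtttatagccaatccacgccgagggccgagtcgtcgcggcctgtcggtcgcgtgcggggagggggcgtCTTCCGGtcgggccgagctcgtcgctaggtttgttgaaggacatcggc

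The NRF1 motif was present in 12 of the 65 members that had a promoter in the reference, which is 18.5%, against 2.8% of all 27025 promoters of the same length. For the ETS motif the values were 17 of 65 (26.2%) against 9.12%, for the YY1 motif 9 of 65 (13.8%) against 2.88%, and for AAGGTCA, the motif of the estrogen-related receptor alpha, 5 of 65 (7.69%) against 4.66%. The motifs may overlap one another. These are counts of letters in a window and carry no statement on binding. Of the 65, 22 are among the members called lower in the E+P gland than in the fat pad (below), and 5 of these 22 held the NRF1 motif and 8 the ETS motif.

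The samples differed in the cells they held. The fat pads lacked luminal epithelium: the summed intensity of 9 luminal markers was between 192 and 242 there against 3284 to 7781 in the intact glands, and Krt8, Krt19, Epcam, Cldn7 and Elf5 were at the floor in all 3. Skeletal muscle markers, scored as the mean log2 deviation over 12 genes from the average of the 5 groups, were at 2.61, 2.03 and 2.72 in the fat pads and 1.87 in E 1, and at most 0.48 in the other intact glands. In summed intensity, 15 muscle genes gave 6780 to 11321 in the fat pads, 908 to 6131 in E and 1077 to 3004 in the other groups, with Myh2 and Tnnc2 at the floor in every animal of every group. Lymphocyte and plasma cell markers scored between -1.77 and -1.74 in V 1, V 2 and V 3, 1.42 in V 4, and 0.42 to 1.99 in E. The Gapdh 3'/5' signal ratio, which rises as RNA degrades, was 1.24 to 1.72 in E, 1.97 to 3.69 in V, 1.35 to 2.76 in P and E+P, and 1.26 to 4.39 in the fat pads. In tissue RNA, fewer cells of a type and less RNA per cell cannot be told apart.

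Across all members, the level was highest in the fat pads and, among intact glands, higher in V than in E. The fat pads had the highest mean of the 5 groups for 57 of 70 members. Among the intact groups V was highest for 55 members and E lowest for 45. The median deviation over the 70 members was 0.05, 0.09, 0.17 and 0.05 in V 1 to V 4, and near 0 in E 1, with -0.32, -0.04 and -0.35 in E 2 to E 4. It was -0.18, -0.12, 0.06 and -0.03 in P 1 to P 4, and 0.03, -0.24, -0.12, 0.06 and -0.25 in E+P 1 to E+P 5. The fat pads gave 0.39, 0.22 and 0.34. Every V animal was thus above every E animal and every fat pad above every intact gland, whereas P and E+P overlapped with E. Within E the animals fell apart: E 2 and E 4 were low and E 1 and E 3 near 0.

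**Figure D1:**
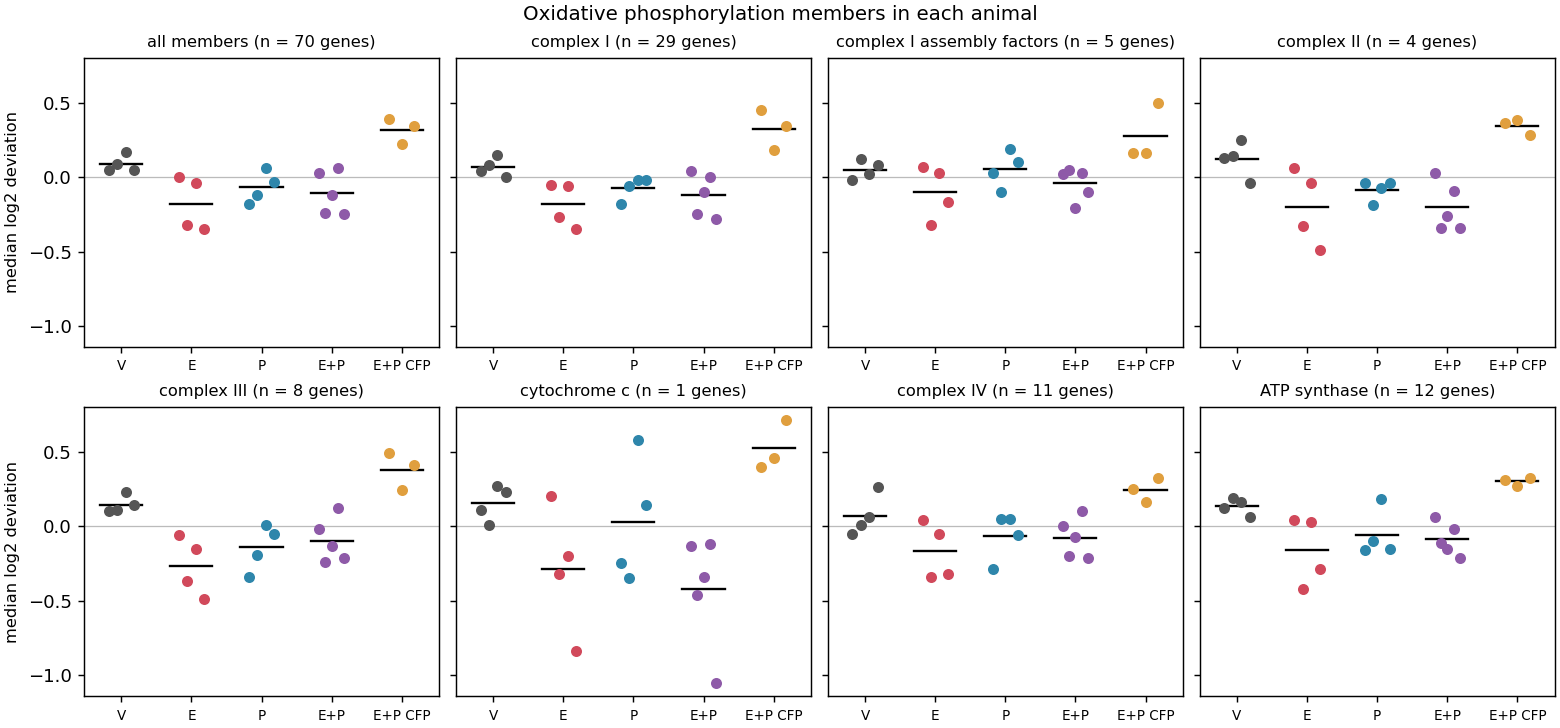
Median log2 deviation of the tested members from the average of the 5 group means, for all 70 members and for each complex; each point is an animal and each bar a group mean. The 3 fat pads (0.22 to 0.39 over all members) lie above the 17 intact glands, and E 2 and E 4 are the lowest of all at -0.32 and -0.35.

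Estrogen alone against vehicle asks how estrogen acts on the gland without progesterone. In this comparison 63 of the 70 members were lower in E than in V, but 0 passed an adjusted p of 0.05 (limma, Benjamini-Hochberg over all 23062 tested probe sets, of which 0.178% passed). The differences were small: the median was -0.29 on the log2 scale, a ratio of 1.22, against 0.000822 over all tested probe sets. An unadjusted p under 0.05 in the lower direction was reached by 27 members, against 6.11% of all probe sets, and by 1 member in the higher direction. Bright probe sets as such were also lower in E: among 445 type A probe sets at least as bright as the median member, 296 were lower and the median was -0.10. At an unadjusted p under 0.05, 18.9% of these bright probe sets were lower, against 38.6% of the members. Groups did not overlap for 21 members, 20 of them lower in E, where 3.83% of all tested probe sets had every E animal below every V animal.

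Complex III had the largest median among the complexes with more than 1 tested gene, at -0.39, with all 8 genes lower and 7 of them at an unadjusted p under 0.05. The medians were -0.28 for complex I, -0.18 for its assembly factors, -0.26 for complex II, -0.31 for complex IV and -0.29 for the ATP synthase. Whether the complexes differ from one another was not tested.

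Sdhd, a membrane anchor of succinate dehydrogenase that helps to form the quinone site and is read on type A, had the smallest p. Its intensity was 1895, 2048, 1990 and 1655 in V, 1420, 1085, 1477 and 970 in E, 1497, 1074, 1769 and 1456 in P, 1515, 1140, 1289, 1341 and 1354 in E+P, and 1798, 1772 and 2075 in the fat pads. All E and all E+P animals were below all V animals, and the fat pads overlapped with V. The log2 difference of E against V was -0.63 ± 0.15 (SE, adjusted p = 0.0963). Its partners differed less: Sdha, the flavoprotein that oxidises succinate, by -0.22 ± 0.18, and Sdhb, the iron-sulfur subunit, by -0.28 ± 0.14, with adjusted p-values of 0.681 and 0.412. A second, type C probe set of Sdhd gave -0.12 ± 0.44.

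Uqcr10, a small subunit of complex III, had intensities of 1697, 1689, 1903 and 1667 in V and 1431, 1147, 1333 and 1003 in E. P animals had 1154, 1220, 1554 and 1414, E+P animals 1526, 1266, 1421, 1640 and 1151, and fat pads 2306, 1783 and 2331. All 13 hormone-treated intact glands were below all vehicle glands. The difference of E against V was -0.51 ± 0.14 (adjusted p = 0.145). Uqcrc1, a core protein of complex III, had 1272 to 1392 in V, 934 to 1171 in E, 853 to 1203 in P and 1069 to 1294 in E+P, so that E and P but not E+P were clear of V. It differed by -0.39 ± 0.12 in E against V (adjusted p = 0.181). Cyc1, the cytochrome that delivers electrons to cytochrome c, differed by -0.30 ± 0.10 (adjusted p = 0.23).

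Atp5e, the epsilon subunit in the central stalk of the ATP synthase, had intensities of 824, 1001, 876 and 835 in V and 702, 514, 607 and 554 in E. It had 696, 763, 558 and 611 in P, 932, 825, 718, 919 and 640 in E+P, and 1121, 997 and 1310 in the fat pads. E and P animals were all below V, and E+P animals spanned from the level of P to that of V. The E difference was -0.58 ± 0.14 (adjusted p = 0.0975). Scaling arrays to a common median gave -0.69 with an adjusted p of 0.0452, the only call among the members in this comparison under any setting tried. Atp5md, a small membrane subunit of the same enzyme, had 2409, 2097, 2655 and 2607 in V and 2005, 1375, 1934 and 1376 in E, a difference of -0.56 ± 0.16 (adjusted p = 0.152). Atp5a1, the alpha subunit of the catalytic head, differed by -0.17 ± 0.11 (adjusted p = 0.582), with groups that overlapped.

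In complex IV, Cox6a1, the form of subunit 6a found outside heart and muscle, had intensities of 5553 to 6679 in V and 3505 to 5177 in E, with no overlap and a difference of -0.50 ± 0.16 (adjusted p = 0.204). Its type B probe set gave -0.65 ± 0.16 (adjusted p = 0.109). Cox5b and Cox7a2, 2 further structural subunits, differed by -0.31 ± 0.11 and -0.34 ± 0.14. Cox4i1, the common form of a regulatory subunit, was read by a dim probe set between 19.5 and 84.9 in all animals and differed by -0.49 ± 0.37; its brighter type A and B probe sets gave -0.28 ± 0.15 and -0.50 ± 0.16. In complex I, Ndufs1 and Ndufv1, which carry iron-sulfur clusters of the electron path, differed by -0.27 ± 0.16 and -0.12 ± 0.12, and the accessory subunit Ndufb9 by -0.37 ± 0.15. Other probe sets of Ndufs1 went the other way, at 0.10 ± 0.45 and 0.43 ± 0.39, and that of Cox7a2 gave 0.01 ± 0.23. Cycs, cytochrome c itself, differed by -0.45 ± 0.23. None of these passed the threshold. Ndufa1 was the member that lay wholly the other way, between 42.3 and 54.4 in V and between 63.0 and 78.1 in E, from a probe set near the brightness limit.

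**Figure D2:**
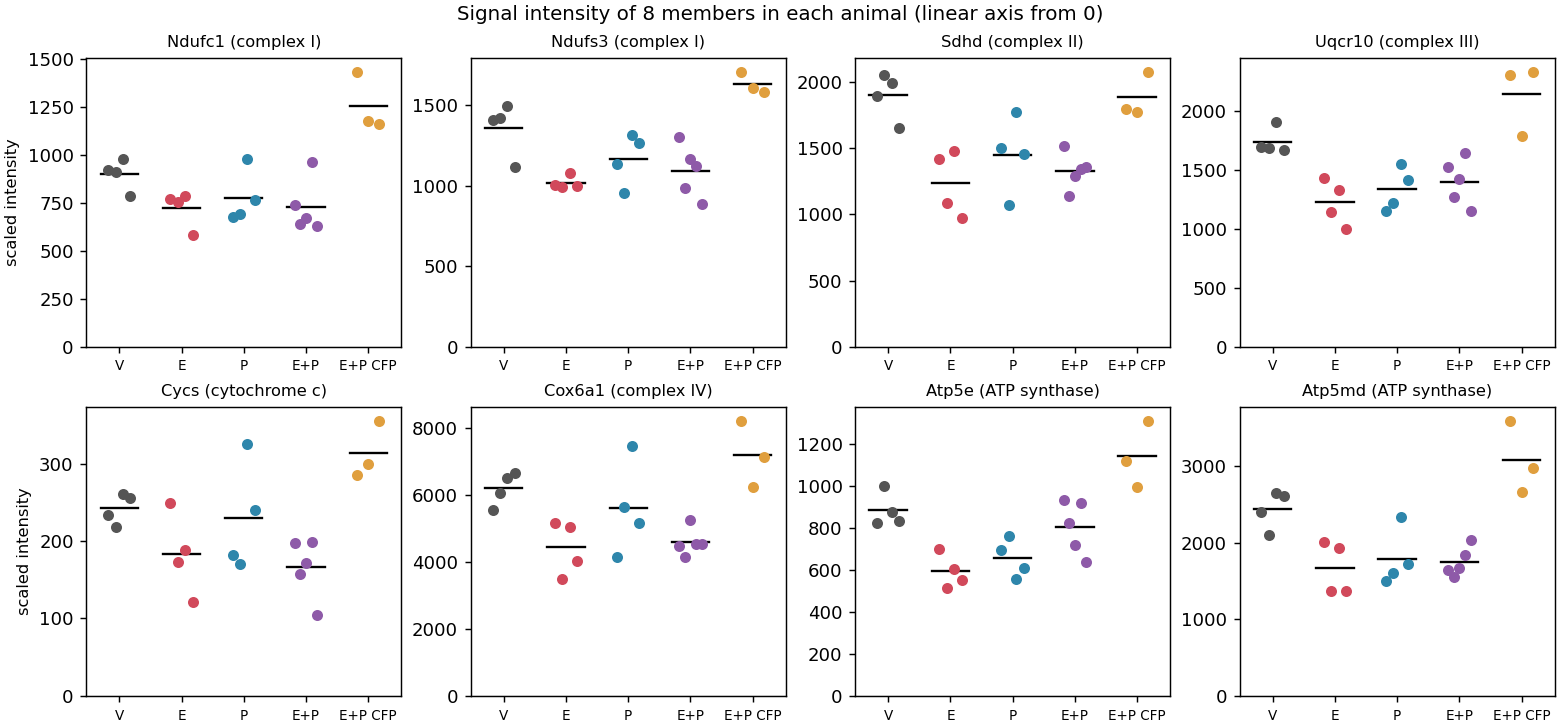
Scaled signal intensity (linear axis from 0) of 8 members in every animal, by group, with bars at the group means. In Sdhd and Uqcr10 all E animals lie below all V animals, and in each of the 8 genes the mean of the fat pads is above that of the E+P glands.

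Of the other tested probe sets of the same genes, 22 were in the same direction as the representing one and 12 in the other. None of the 12 passed the threshold. Beside the members' difference stand other differences between E and V. Brown adipocyte markers scored 0.69 to 1.01 in V and -1.11 to -0.53 in E, and summed to 662 to 955 in V and 214 to 292 in E; Ucp1, the uncoupling protein, changed by -3.23 ± 0.50, a lower bound of its size with 2 E animals at the floor (adjusted p = 0.00747), and Cidea, a lipid droplet protein, fell by 1.64 ± 0.26 (adjusted p = 0.00821). White adipocyte markers scored -0.29 to 0.12 in V and -0.39 to 0.02 in E, with 8 of 10 lower and 0 called. Lymphocyte markers were higher in E for 12 of 12, with 0 called. Endothelial markers were lower in E for 7 of 8, with a median of -0.62 and summed intensities of 1503 to 1791 in E against 1997 to 2882 in V; Cldn5, a tight junction protein, fell by 1.20 ± 0.21 (adjusted p = 0.0147). Luminal markers were higher in E for 8 of 9, with a median of 0.16 and sums of 4077 to 7781 against 3284 to 4285 in V; the keratin Krt19 rose by 1.19 ± 0.21 (adjusted p = 0.0186). The 2 E animals with low members, E 2 and E 4, also had the lower muscle scores (-1.26 and -1.54, against 1.87 and -0.07 in E 1 and E 3) and the lower white adipocyte scores (-0.39 and -0.30, against 0.02 and -0.09). Their brown adipocyte scores (-1.08 and -1.11, against -0.74 and -0.53) and endothelial scores (-0.46 and -0.39, against -0.15 and -0.22) were lower too. Their lymphocyte scores were higher (1.99 and 1.22, against 0.42 and 0.73). The part of these cells and of the Gapdh ratio in the members' difference was not tested beyond the fits with muscle score or Gapdh ratio as a covariate. No other cell type was fitted as a covariate. The median over members stayed between -0.39 and -0.24 under all 32 settings, those fits included. The Gapdh ratio of every E animal was below that of every V animal, so that ratio and group can hardly be told apart in its fit.

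Progesterone alone against vehicle gave a smaller difference. In P, 58 of 70 members were lower than in V, with a median of -0.18 and 0 past the threshold, in a comparison where 0.0% of all probe sets passed. Lower at an unadjusted p under 0.05 were 14 members, against 3.92% of all probe sets, and 9 members had P animals all below V, against 2.04% of all probe sets. Complex II had the lowest median, at -0.30, followed by complex III at -0.29 with 8 of 8 lower. Ndufa8, an accessory subunit of complex I, had the smallest p: 606, 634, 648 and 589 in V and 491, 428, 507 and 503 in P, a difference of -0.36 ± 0.12 (adjusted p = 0.45). Atp5e differed by -0.43 ± 0.14, Atp5md by -0.46 ± 0.16, Uqcr10 by -0.39 ± 0.14 and Uqcrc1 by -0.34 ± 0.12, with adjusted p-values between 0.457 and 0.483. Among the other tested probe sets of the members, 15 were in the same direction as the representing one and 19 in the other. Of the marker lists, skeletal muscle was lower in P for 11 of 12 genes with a median of -0.51, brown adipocyte for 3 of 3 with a median of -0.91, and glycolysis for 10 of 12 with a median of -0.21. Muscle summed to 1128 to 1592 in P against 1302 to 3004 in V, and brown adipocyte markers to 387 to 553 against 662 to 955. Lymphocyte markers were higher for 12 of 12 with a median of 0.82. No gene of these lists was called. With the muscle score as a covariate, 53 of 70 members were lower in P and 0 were called. The part of these lists in the members' difference was not tested beyond that fit. E and P are compared with the same 4 V animals, so their common direction is not independent.

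With both hormones, 60 of 70 members were lower than in V, the median was -0.22 and 0 passed the threshold, against 0.46% of all probe sets. Lower at an unadjusted p under 0.05 were 16 members, against 4.67%, and in 7 members all E+P animals were below all V animals, against 1.94% of all probe sets. Of the 445 bright type A probe sets, 276 were lower in E+P, with a median of -0.07. At an unadjusted p under 0.05, 17.3% of them were lower, against 22.9% of the members. Sdhd again had the smallest p, at -0.52 ± 0.14 (adjusted p = 0.13), followed by Atp5md at -0.48 ± 0.15 (adjusted p = 0.175) and Cox6a1 at -0.43 ± 0.15 (adjusted p = 0.245). The second probe set of Sdhd went the other way, at 0.43 ± 0.42. Of all other tested probe sets of the members, 20 were in the same direction as the representing one and 14 in the other. Ndufb10, an accessory subunit of complex I, differed by -0.28 ± 0.10 (adjusted p = 0.28) and Cycs by -0.58 ± 0.22 (adjusted p = 0.305). Cycs had 234, 218, 261 and 255 in V and 198, 158, 171, 199 and 105 in E+P. These groups did not overlap, and E+P 5 was the lowest of the 20 animals. White adipocyte markers scored -0.56 to -0.05 in E+P with the lowest values in E+P 2 and E+P 5, the animals that were also lowest in the members, and were lower than in V for 9 of 10 genes (median -0.33, 0 called). Muscle scores in E+P 2 and E+P 5 were -0.95 and -0.11, the latter the highest of the E+P animals. Endothelial markers were lower for 7 of 8 with a median of -0.41 and sums of 1457 to 2064 in E+P against 1997 to 2882 in V; Cldn5 fell by 0.98 ± 0.19 and Cdh5, the cadherin of endothelial cells, by 0.96 ± 0.19 (adjusted p = 0.0291 for both). Among the brown adipocyte markers, Cidea fell by 1.18 ± 0.25 (adjusted p = 0.0359), while Ucp1 differed by -0.11 ± 0.48 (adjusted p = 0.967). Dio2 went the other way at 0.48 ± 0.22 (adjusted p = 0.434), with every E+P animal above every V animal. The brown adipocyte sums overlapped, at 293 to 942 in E+P. Muscle markers were lower for 10 of 12 (median -0.41) and luminal markers higher for 8 of 9 (median 0.74, 7 at an unadjusted p under 0.05), with 0 called in either list. With the muscle score as a covariate, 60 of 70 members were lower in E+P and 0 were called. The part of these cells was not tested beyond that fit. The V animals are shared with the previous comparisons.

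Where progesterone was added to estrogen, members hardly differed. In E+P against E, 52 of 70 were higher, with a median of 0.07 and 0 past the threshold, against 0.143% of all probe sets; 2 were higher at an unadjusted p under 0.05, against 5.6%. Atp5e had the smallest p, at 0.44 ± 0.13 (adjusted p = 0.251). All 8 complex III genes were higher, with a median of 0.17. Where estrogen was added to progesterone, 40 of 70 were lower, with a median of -0.02 and 0 past the threshold, against 0.351%; 3 were lower at an unadjusted p under 0.05, against 5.2%. Atp5g1, a ring subunit of the ATP synthase read by a dim probe set, had 112, 119, 80.7 and 69.2 in P and between 54.3 and 61.4 in E+P 1, 2, 3 and 5 and lower still in E+P 4, with no overlap and a difference of -0.72 ± 0.22 (adjusted p = 0.168).

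The interaction asks whether the hormones together act differently from the sum of their single effects. For 60 of 70 members it was above 0, which means that E+P was higher than the separate differences of E and P would add up to. Of the other tested probe sets of the same genes, 16 were in the same direction as the representing one and 18 in the other. The median was 0.25, and 0 members passed the threshold, against 0.0737% of all probe sets; 14 were above 0 at an unadjusted p under 0.05, against 6.14%. Complex III had a median of 0.45 with 8 of 8 above 0 and 6 at an unadjusted p under 0.05. Atp5e had the smallest p and the largest value, 0.87 ± 0.19 (adjusted p = 0.0934). Among the 5 members with the smallest p were also Uqcr11, a small subunit of complex III, at 0.68 ± 0.23 and Uqcr10 at 0.58 ± 0.19. V enters this value with a positive sign and each single hormone with a negative one, so it is not independent of the comparisons above. Mitochondrial fatty acid oxidation genes had a median of 0.30 in it and lymphocyte markers one of -2.27. Brown adipocyte markers were above 0 for 3 of 3 with a median of 1.37, all at an unadjusted p under 0.05, and Ucp1 was called at 4.28 ± 0.69 (adjusted p = 0.0131), a value that 2 E animals at the floor enter. The part of these lists in the members' interaction was not tested.

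**Figure D3:**
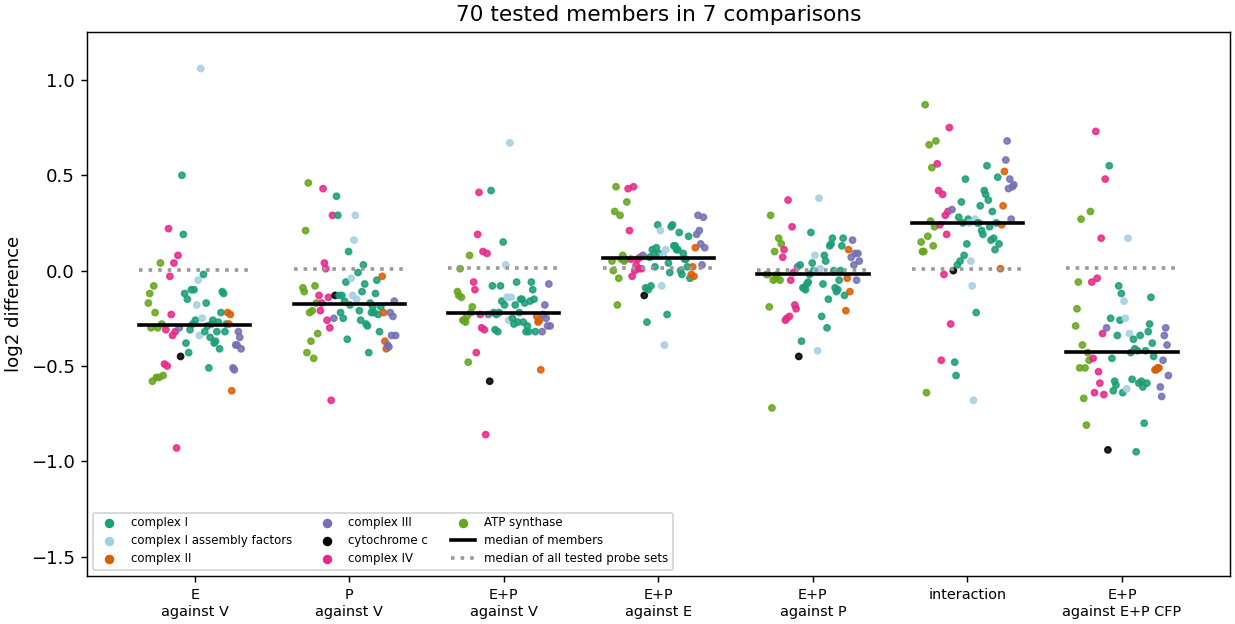
Log2 differences of the 70 tested members in 7 comparisons, coloured by complex; solid bars are member medians and dotted bars the medians of all 23062 tested probe sets, which lie near 0. Member medians are -0.29, -0.18 and -0.22 against vehicle, 0.25 in the interaction and -0.43 in the E+P gland against the fat pad.

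The intact gland differed from the fat pad without epithelium in far more members. Of the 70, 63 were lower in E+P than in E+P CFP, 27 of them past the threshold, where 7.9% of all probe sets passed in either direction and 2.68% in that direction. A single member, Cox8c, was past it in the other direction. The median was -0.43, a ratio of 1.34, and no called member differed by more than a ratio of 1.93. Bright probe sets leaned the same way, with 280 of the 445 lower and 102 called lower, at a median of -0.19. At an unadjusted p under 0.05, 48 members (68.6%) were lower, against 8.13% of all probe sets and 39.6% of the bright ones. In 38 members every E+P gland was below every fat pad, against 6.47% of all probe sets. Other tested probe sets of the members were in the same direction as the representing one in 24 cases and in the other in 10. The called members were 14 of 29 in complex I, 2 of 4 in complex II, 3 of 8 in complex III, Cycs, 4 of 11 in complex IV, 3 of 12 in the ATP synthase and 0 of the 5 assembly factors. Of the 14 members whose probe set carries a suffix, 9 were called lower, with a median of -0.52. Of the 56 without a suffix, 18 were called lower, with a median of -0.39.

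In complex I the called genes other than Ndufs3 were accessory subunits, which surround the core that carries electrons and pumps protons. Ndufc1, one of them, had intensities of 741, 643, 672, 964 and 630 in E+P and 1434, 1176 and 1164 in the fat pads, with no overlap and a log2 difference of -0.80 ± 0.15 (adjusted p = 0.00189). Ndufb10 had 649 to 787 in E+P animals other than E+P 4, which was higher but below every fat pad, and 1131, 1064 and 1069 in the fat pads, a difference of -0.57 ± 0.11 with the smallest adjusted p among the members (0.00171). Ndufb3 had the largest difference, -0.95 ± 0.26 (adjusted p = 0.0263), with 538 to 1139 in E+P and 1400 to 2100 in the fat pads. Ndufab1, the acyl carrier protein of mitochondria that is also a subunit, differed by -0.64 ± 0.17, Ndufa2 by -0.63 ± 0.17, Ndufb9 by -0.61 ± 0.16, Ndufa5 by -0.60 ± 0.13 and Ndufb6 by -0.59 ± 0.16, with adjusted p-values between 0.00639 and 0.0288. Ndufs3, a core subunit of the peripheral arm, had 1302, 982, 1164, 1124 and 883 in E+P and 1705, 1604 and 1578 in the fat pads, a difference of -0.59 ± 0.13 (adjusted p = 0.00644). The core subunits Ndufs1 and Ndufv1 did not pass, at -0.42 ± 0.16 and -0.14 ± 0.13. Other probe sets of Ndufc1 and Ndufs3, both with SEs above 0.3, gave 0.25 ± 0.34 and 0.03 ± 0.57. Those of Ndufs1 also went the other way, at 0.63 ± 0.46 and 0.24 ± 0.40.

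In complex II the 4 subunits had nearly the same difference, between -0.52 and -0.51. Sdhb, with 1820, 1289, 1364, 1855 and 1220 in E+P against 2239, 2070 and 2106 in the fat pads, and Sdhc, the other membrane anchor, passed with adjusted p-values of 0.0231 and 0.0423. Sdhd and Sdha missed the threshold at 0.0506 and 0.0907. The second probe set of Sdhd gave 0.05 ± 0.45. In complex III the called genes were Uqcr11, Uqcr10 and Uqcrq, all small subunits, at -0.66 ± 0.17, -0.61 ± 0.14 and -0.55 ± 0.13. Uqcrc1 and Cyc1 differed by -0.34 ± 0.12 and -0.30 ± 0.10 (adjusted p = 0.0954 and 0.0933). Another type A probe set of Cyc1 gave 0.04 ± 0.19.

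Cycs had 285, 299 and 355 in the fat pads against 105 to 199 in E+P. The difference was -0.94 ± 0.23 (adjusted p = 0.0143), and all E+P glands were below all fat pads. In complex IV, Cox6a1, with 4476, 4157, 5272, 4556 and 4551 in E+P against 8226, 6246 and 7153, differed by -0.64 ± 0.16 (adjusted p = 0.0154). Cox7a2 differed by -0.59 ± 0.14 and Cox5b by -0.46 ± 0.12 (adjusted p = 0.0128 and 0.0182). Cox4i1 and Cox6b2, a form known from testis, differed by -0.06 ± 0.38 and -0.04 ± 0.23, from dim probe sets. The brighter type A and B probe sets of Cox4i1 gave -0.26 ± 0.16 and -0.22 ± 0.17. Cox8c, also known from testis, went the other way at 0.48 ± 0.14 (adjusted p = 0.0378), with 309 to 446 in E+P and 244 to 297 in the fat pads; its second probe set gave -0.47 ± 0.48. In the ATP synthase, Atp5md had 1651, 1557, 1666, 1835 and 2041 in E+P against 3593, 2668 and 2974 in the fat pads, a difference of -0.81 ± 0.16 (adjusted p = 0.0025). Atp5l and Atp5e, at -0.51 ± 0.12 and -0.51 ± 0.15, also passed, while Atp5a1 of the catalytic head did not (-0.29 ± 0.12, adjusted p = 0.151). Atp5d, represented by a dim probe set, differed by -0.06. Other type A probe sets of Atp5d gave -0.68 ± 0.19 and -0.84 ± 0.25 (limma, adjusted p = 0.032 and 0.0417) and -0.53 ± 0.25 (adjusted p = 0.24). Its type C probe set gave 0.25 ± 0.62.

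**Figure D4:**
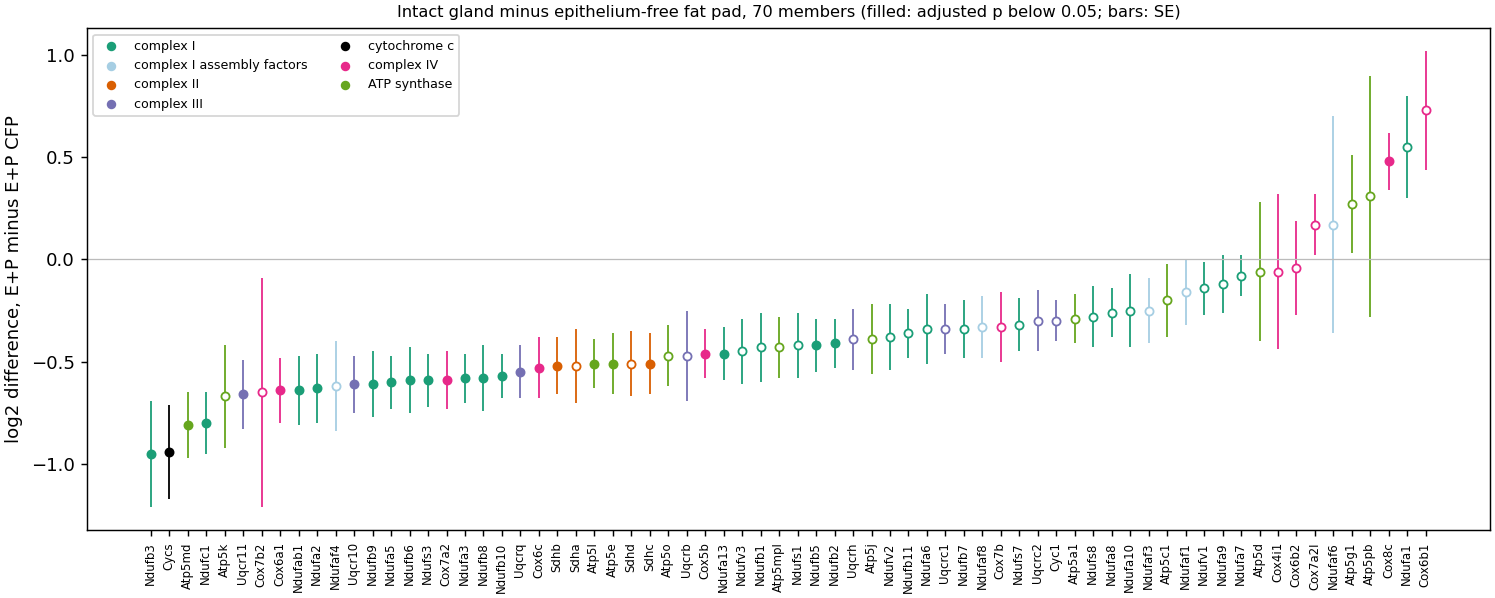
Log2 difference of the E+P gland minus the fat pad without epithelium for the 70 tested members, in order of size, with bars of 1 SE and filled points for an adjusted p below 0.05 (limma). The 27 filled points below 0 span all complexes but not the assembly factors, and Cox8c at 0.48 is the filled point above 0.

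The number of called members rests on few animals. It was 28 in all, and 6 without E+P CFP 1, 11 without E+P CFP 3, 13 without E+P 5 and 16 without E+P 2, the last 2 being the E+P glands with the lowest members. The median over members stayed between -0.48 and -0.38 with any 1 animal left out. Atp5md, Ndufa3, Ndufb10, Ndufc1 and Ndufs3 were called lower in the gland whichever animal was left out. Muscle and fat moved with this difference: 12 of 12 muscle markers were called lower in the gland, with a median of -3.12, and 7 of 10 white adipocyte markers, with a median of -0.73 and summed intensities of 22033 to 30998 in E+P against 40997 to 44976 in the fat pads. Endothelial markers were lower in the gland for 7 of 8 with a median of -0.41, with Cdh5 called at -1.12 ± 0.21 (adjusted p = 0.00128). Of the brown adipocyte markers, Ucp1 was called higher at 3.72 ± 0.52 (adjusted p = 5.7e-05), a lower bound with all 3 fat pads at the floor. Cidea and Dio2 were not called, at -0.04 ± 0.27 (adjusted p = 0.956) and 0.40 ± 0.24 (adjusted p = 0.374). With the muscle score as a covariate the median was -0.16 and 0 members were called; the score lies between -1.05 and -0.11 in E+P and between 2.03 and 2.72 in the fat pads, so that muscle and group can hardly be told apart in that fit. Cox6a2, the subunit 6a of heart and skeletal muscle that the rule leaves out, differed by -3.92 ± 0.56 (adjusted p = 7.4e-05, a lower bound of its size with 1 E+P animal at the floor), at 142 to 395 in the fat pads, 136 in E 1 and at most 51.7 in the other intact glands. Cox8b and Cox7a1, forms known from muscle and brown fat that the rule also leaves out, differed by -0.59 ± 0.18 and -0.03 ± 0.32. The part of muscle, of fat and of the absent epithelium in the members' difference was not tested beyond these values.

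Scaling changed the count as well. With arrays scaled to a common median, 45 members were called lower and 59.6% of all calls in this comparison were lower in the gland, against 33.8% with the trimmed mean; the median of all probe sets moved from 0.01 to -0.11 and that of the members to -0.65. In E+P against V the share of lower calls moved from 46.2% to 60.5% and in E+P against E from 48.5% to 59.4%, with 0 members called in either.

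Other mitochondrial genes, from lists of textbook members, were read beside the members. Genes of mitochondrial fatty acid oxidation, which feed electrons to the chain, were lower in E than in V in 14 of 14, with a median of -0.39; Acaa2, the thiolase that ends each round, passed at -0.81 ± 0.15 (adjusted p = 0.0277). Against the fat pad, 13 of 14 were lower in the gland with a median of -0.48, with Etfb, part of the flavoprotein that carries the electrons, at -0.72 ± 0.13 and Acads, a dehydrogenase of short chains, at -1.04 ± 0.26 called lower. Cpt1a, which controls the entry of fatty acids into mitochondria, was called higher at 1.13 ± 0.18. Genes of the tricarboxylic acid cycle and pyruvate dehydrogenase, which supply NADH and succinate, were lower in E in 15 of 16 with a median of -0.30 and 0 called. They were lower in the gland than in the fat pad in 15 of 16 with a median of -0.43 and 5 called: Pdhb, Dld, Dlst, Mdh2 and Sucla2.

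Mitochondrial ribosomal proteins, which build the mitochondrially encoded subunits, differed less. In E against V 35 of 64 were lower, with a median of -0.02, and in E+P against V 22 of 64 were lower, with a median of 0.05. Against the fat pad 43 of 64 were lower in the gland with a median of -0.10, and 2, Mrpl12 and Mrpl15, were called. The 8 tested regulators of mitochondrial biogenesis had medians of 0.06 in E against V and 0.08 against the fat pad. Gabpb1, a subunit of the ETS factor GABP, was called higher in the gland at 0.67 ± 0.16 (adjusted p = 0.0138), and Esrra differed by -0.36 ± 0.20 (adjusted p = 0.319). Assembly factors outside the members were called lower in the gland for 4 of 24, Cox19, Cox17, Cox16 and Atpaf2, and higher for 1, Acad9. Slc25a4, the ADP/ATP carrier most abundant in heart and muscle, was called lower at -0.47 ± 0.14 (adjusted p = 0.044). Glycolysis genes were lower in E for 9 of 12 with a median of -0.14. Against the fat pad they were lower in the gland for 11 of 12 with a median of -0.32; Aldoa, an aldolase, Ldha, a lactate dehydrogenase subunit, and the hexokinase Hk2 were called lower at -0.83 ± 0.13, -0.62 ± 0.14 and -1.47 ± 0.26, and the hexokinase Hk1 was called higher at 0.64 ± 0.16 (adjusted p between 0.000296 and 0.0128). These lists were not tested against the members.

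**Figure D5:**
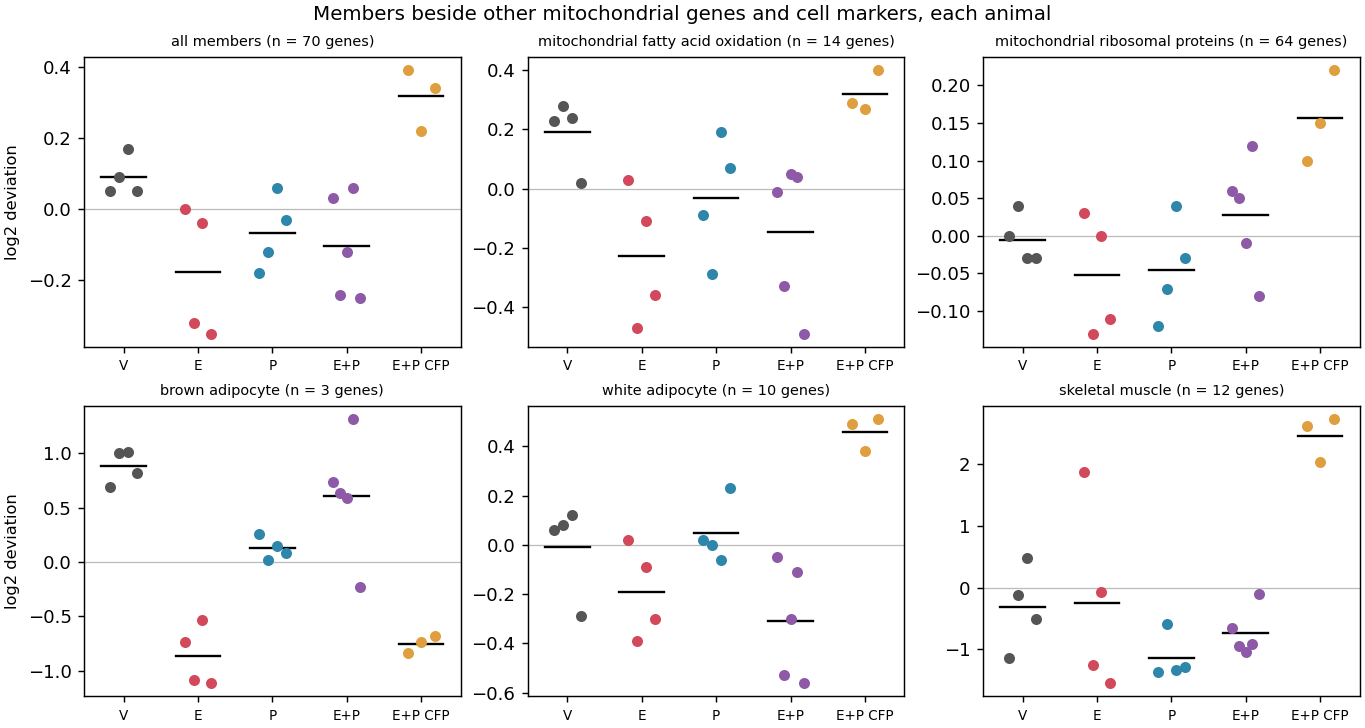
Log2 deviation from the average of the 5 group means in each animal, for the members, 2 other mitochondrial lists (medians over genes) and 3 marker lists (means over genes); bars are group means, and the vertical scales differ. The fat pads are the highest group in all panels but that of the brown adipocyte markers, where they lie between -0.84 and -0.68, as low as the E animals.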

How the data were processed

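The authors deposited linear signal intensities from MAS5, as the submitters' processing notes have it, and the sources used here name neither a version nor settings. Arrays of a group and replicate number were joined into 1 animal. Of 36899 probe sets, 29131 had 1 gene symbol in the platform annotation, and 16 that name a member among several symbols were not used. Each array was scaled to the common 2% trimmed mean of its type, floored at the 25th percentile (A 13.6, B 28.6, C 19.8) and log2-transformed. Probe sets above the 50th percentile (61.6, 85.7 and 61.8) in at least 3 animals were tested: 7221, 7716 and 8125. Values at the floor are not ordered among themselves. Models with a mean per group with an intensity trend were fitted for each array type (limma 3.58.1, R 4.3.3); p-values were Benjamini-Hochberg adjusted over all types, with a threshold of 0.05. The script was tested on simulated data. A gene took 1 probe set, from type A where possible and then B, without a suffix where possible, and the brightest of those left. The 3 hormone groups were compared with V, the single hormones with E+P, and E+P with E+P CFP, and the interaction was fitted. The members, lists and alternatives were chosen with earlier results of these data known. Named members were those past the threshold (up to 12 by size), or else the 5 smallest p-values, and a set of subunits chosen by role; those named for other reasons (not overlapping, called in every omission, or dim) were picked after their values were seen. Alternatives were other scalings, floors, filters, variance models, probe sets and samples in the fit, the replicate number, covariates and leaving out animals. The arrays give no counts from which an interval could be drawn.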

Additional observations from a re-analysis of the deposited data

Results flagged for a closer look

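In 156 sets of 4 or 5 animals of a group, taken over the named members and the medians of all members and of each complex, 8 held an animal whose gap to the nearest other was past Dixon's 95% limit; chance alone flags about 1 in 20 sets. All values are log2 intensities.

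In P, animal 3 stood high for Atp5a1, at 11.98 against 11.58 to 11.6 in the others, and for Cox7a2, at 11.32 against 10.74 to 10.82. P 2 stood low for Ndufb3, at 9.46 against 10.18 to 10.32, and for Ndufb6, at 9.98 against 10.31 to 10.32. In V, animal 3 was low for Cox6b2, at 5.58 against 6.11 to 6.22, and high for Uqcr10, at 10.89 against 10.7 to 10.73. E 4 was low for Ndufc1, at 9.19 against 9.56 to 9.62. E+P 4 was high for Uqcrc1, at 10.34 against 10.06 to 10.13.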

How the results depend on the processing

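Each result was recomputed under 12 other settings and without each of the 20 animals, 32 in all. The median over members kept its sign throughout in E against V (-0.39 to -0.24), P against V (-0.28 to -0.08), E+P against V (-0.35 to -0.16), E+P against E (0.02 to 0.11), the interaction (0.2 to 0.33) and E+P against E+P CFP (-0.65 to -0.16), and ranged from -0.07 to 0.02 in E+P against P. With median scaling 1 member was called in E against V, 45 in E+P against E+P CFP, and the medians of E+P against V and E+P against E+P CFP were -0.35 and -0.65; the cause was not tested. The 28 members called in E+P against E+P CFP became 12 with quantile normalization, 18 with no filter, 7 without V 4, E 1 and E+P CFP 1 together, and 0 with the muscle score as a covariate, where the median was -0.16; with 1 animal left out they numbered 6 to 30. Replicate numbers did not pair the animals: of 23 pairs with the same number in 2 groups, 0 had deviations correlated above 0.1 (-0.101 to 0.0857), and with the replicate block 16 members were called. In the other 6 comparisons no setting but median scaling called a member. Dim probe sets, near the percentile that sets the filter, measure differences less well than bright ones.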
